A study of Mus musculus with 9 samples.

Results

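Circular RNAs (circRNAs) from genes of the ubiquitin system were followed through the differentiation of C2C12 cells, a line of mouse myoblasts that derives from skeletal muscle. A host, the gene whose exons are joined into the circle, was included when its symbol started with Usp, Ube, Ubr, Herc, Fbxo, Fbxw, Fbxl, Trim, Rnf or Cul followed by a digit. By this rule 170 of the 6943 hosts in the table were members (2.45%), with 981 of 37751 circRNAs (2.60%) and 87961 reads (3.28% of all back-splice reads). The rule uses names only, so it took in Usp6nl, which encodes a GTPase-activating protein with a domain related to deubiquitinases, and it placed Ube2cbp, an E3-type ligase also known as Ube3d, among the E2 enzymes.

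Cells were sampled while they were growing in DMEM with 10% fetal bovine serum at 70-80% confluence (day 0), and at days 3 and 6 after confluent cultures were moved to DMEM with 2% horse serum, the usual way to make C2C12 myoblasts leave the cell cycle and fuse into myotubes. Each time point had 3 libraries, 9 in all, of total RNA that, per the labels, was isolated with TRIzol, cleaned on beads and treated with DNase as the step meant to enrich circRNAs, and then put through an mRNA-seq kit. Nothing in the labels says that the 3 libraries of a day are separate cultures. The spread that the p-values rest on is therefore the spread among these samples only and may be technical. C2C12 is 1 line of cells in culture, without the nerve, vessels or load of a muscle.

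Ubiquitin is attached to proteins in a relay: an E1 enzyme activates it, an E2 enzyme carries it, and an E3 ligase picks the protein that receives it. RING ligases (many of the Rnf and Trim proteins) hold E2 and substrate together, HECT ligases (Ube3 and Herc proteins) take the ubiquitin over before passing it on, and U-box ligases (Ube4 proteins) extend chains. In the SCF complexes a cullin scaffold carries an F-box protein (Fbxo, Fbxw or Fbxl) that recognises the substrate, Ubr proteins include the readers of destabilising N-terminal residues, and Usp enzymes take ubiquitin off again. In muscle this system removes myogenic regulators and sarcomere proteins, and the ligases atrogin-1 (Fbxo32) and MuRF1 (Trim63) are the classical markers of wasting.

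A circRNA is identified by its back-splice junction, where the end of a downstream exon (the donor) is joined to the start of an upstream one (the acceptor). The junctions below are those of the 10 member circRNAs with the most reads and of both Rnf150 circles that passed the test at day 3, since every count given here is a count of reads across such a junction. Lower case is the end of the last exon and capitals are the start of the first exon, 5′ to 3′, read from GENCODE M21 transcripts of GRCm38. For the circles of Fbxo42, Rnf4 and Fbxw7, which hold the start codon, 15 bases are given on each side, and 20 for the others.
Rnf169 exons 2 to 4: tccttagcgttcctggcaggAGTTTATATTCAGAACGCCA
Fbxw4 exons 2 to 5: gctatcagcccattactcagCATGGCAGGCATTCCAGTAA
Fbxo42 exons 2 to 4: gaccattggcctcagAGCTTCGAGTGTGTC
Rnf4 exons 2 to 7: gatggatactctgagAATTTGGAAATACTG
Fbxw7 exon 4: acaaagacaacaaaaAATGTGAAAACCTTT
Ube2cbp exons 4 to 8: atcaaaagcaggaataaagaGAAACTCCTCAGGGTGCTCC
Ubr3 exons 2 to 5: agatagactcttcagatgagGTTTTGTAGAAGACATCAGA
Fbxl17 exons 2 to 4: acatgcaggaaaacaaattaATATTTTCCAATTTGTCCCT
Fbxw8 exons 6 to 7: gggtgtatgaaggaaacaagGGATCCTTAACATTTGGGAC
Rnf217 exons 2 to 3: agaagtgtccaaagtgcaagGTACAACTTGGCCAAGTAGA
Rnf150 exons 2 to 4: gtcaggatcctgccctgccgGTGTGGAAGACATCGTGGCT
Rnf150 exons 2 to 6: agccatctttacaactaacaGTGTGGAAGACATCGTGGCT
Both Rnf150 circles share the acceptor side and differ in the donor side, as they start at the same exon and end at different ones.

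Of the 10 circles with the most reads, 7 began at exon 2 of the host. Among the 367 exonic member circRNAs that were seen in at least 2 libraries and matched annotated exon ends (95.8% of 383), 138 (37.6%) began at exon 2 and held 59.0% of the reads of that set, against 29.6% of circRNAs and 42.5% of reads for the 12407 matched circRNAs of all other hosts. None of the 367 members began at exon 1, and only 9 of the 12407 circRNAs of other hosts did. The median member circle had 4 exons and a spliced length of 549 bases (quartiles 407 and 773.5), against 4 exons and 556 bases (411 and 800) elsewhere. Median introns were 7093 bases upstream and 3463 bases downstream, against 7299.5 and 5069. Members of 1 host share sequence and flanking introns and are not independent, so these shares are given without a test.

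Coding sequence made up the whole circle in 309 of 366 member circles of coding transcripts (84.4%), and in 116 of those (37.5%) its length was a multiple of 3, against 39.2% in other hosts. Start codons lay in 52 circles (14.2% against 13.4%), among them the most abundant circles of Fbxo42, Rnf4 and Fbxw7. Single-exon circles were 9 (2.45% against 1.97%), and the most abundant of them was Fbxw7 exon 4 at chr3:84903501-84904079 (GRCm38, + strand), 579 bases long with 2106 reads. Intronic or intron-ended loci were 81 of 981 (8.26%) and held 1.79% of member reads, against 10.3% and 3.75% for other hosts.

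Library totals ranged from 208787 to 443955 back-splice reads, of which 6600 to 13647 were member reads from 86 to 112 member hosts and 209 to 316 member circRNAs per library. A level in CPM is reads scaled to a common library total, with TMM factors, and counts a junction whatever the length of the circle, while a host's level sums all its circles. Reads are PCR copies without molecular identifiers, so a floor of 3 reads, which stood for 7.09 to 14.5 CPM depending on the library, covers counting error only, and the smallest count above 0 in the table was 2. Ttn and the other markers of differentiated muscle with circRNAs (12 of 17 listed) summed to 319 to 557 CPM at day 0, 10353 to 11990 at day 3 and 12425 to 16328 at day 6. Markers of proliferating cells (11 of 11 listed) summed to 7446 to 9328, 1946 to 2462 and 901 to 1561 CPM. With edgeR 4 of 8 tested muscle markers rose on both days, and 6 and 7 of 10 tested proliferation markers fell at days 3 and 6. Myoblast markers (4 of 7 listed) summed to 137 to 289, 289 to 504 and 320 to 482 CPM. Of other cell types that such cultures can hold, 2 of 8 adipocyte or osteoblast markers (330 to 678, 495 to 878 and 384 to 640 CPM) and 4 of 5 fibroblast markers (0, 13.0 to 70.8 and 17.2 to 37.8 CPM) were listed.

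Reads were spread unevenly over the members. The 10 hosts with the most reads held 47.8% of member reads, 94 hosts had under 100 reads in all, 53 were seen in all 9 libraries and 31 in only 1. After a filter on low counts 113 hosts with 99.0% of member reads were tested, and the 57 others had at most 48 reads (median 12). Hosts carried a median of 3 circRNAs, as did other hosts. In the 76 member hosts with at least 100 reads, a single circle held a median of 57.7% of the reads, against 52.8% in 2597 other hosts. Most loci were rare: 578 of 981 member circRNAs (58.9%) appeared in 1 library only and held 6.33% of member reads, while 51 (5.20%) appeared in all 9 and held 68.2%.

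RNF ligases were the class with the most reads (38 hosts, 188 circRNAs, 34.4% of member reads), followed by F-box proteins (37 hosts, 122 circRNAs, 23.8%), Usp enzymes (39 hosts, 275 circRNAs, 11.1%), E2 enzymes with Ube2cbp (15 hosts, 62 circRNAs, 9.36%) and Ubr ligases (6 hosts, 113 circRNAs, 8.86%). TRIM ligases (21 hosts, 4.56%), HECT ligases (7 hosts, 4.19%), U-box ligases (2 hosts, 2201 reads) and cullins (5 hosts, 1.29%) made up the rest. Usp hosts thus had more circRNAs than RNF hosts with fewer reads.

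The members' share of all back-splice reads was 3.54%, 3.67% and 3.40% in the day 0 libraries, 3.27%, 3.24% and 3.27% at day 3 and 3.16%, 3.04% and 3.07% at day 6. The means were 3.54% ± 0.137, 3.26% ± 0.0198 and 3.09% ± 0.0627 (SD, n = 3 each), and the ranges of the 3 days did not overlap. Much of the step from day 0 lay in the E2 class, which went from 0.452% to 0.251% and 0.237%, and there in Ube2cbp, which went from 0.292% to 0.121% and 0.116%. Without Ube2cbp, an alternative chosen after seeing the data, the members' share was 3.24% ± 0.117, 3.14% ± 0.0271 and 2.98% ± 0.0506, and days 0 and 3 overlapped. A share depends on all other circRNAs: Ttn alone took 0.00379%, 0.722% and 0.889% of the reads at days 0, 3 and 6, and its part in the members' share was not tested. In bulk RNA, fewer cells of a type and less RNA per cell cannot be told apart.

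**Figure D1:**
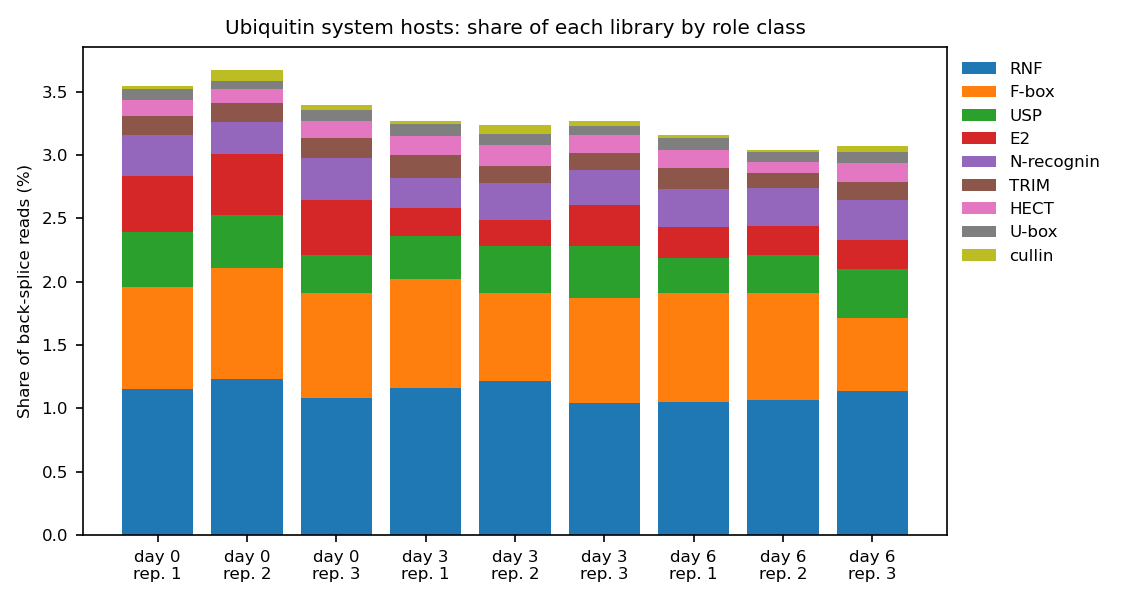
Stacked bars give each role class as a percentage of all back-splice reads in each of the 9 libraries, with the bar height as the share of all members. Bars of day 0 reach 3.40% to 3.67%, those of day 6 3.04% to 3.16%, and RNF and F-box hosts form the largest parts of each bar.

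Few member hosts were called as changed with differentiation. Between days 0 and 3, Rnf150 rose and Ube2cbp fell, which are 2 of 113 tested members (1.77%) beside 3.94% of all 4135 tested hosts (edgeR quasi-likelihood F-test, Benjamini-Hochberg adjusted p under 0.05). By direction this was 0.885% of members higher beside 3.05% of all hosts, and 0.885% lower beside 0.895%. Between days 0 and 6, Rnf150 and Ubr3 rose and Ube2cbp fell, 3 of 113 (2.65%) beside 5.63% of all hosts, with 1.77% higher beside 3.85% and 0.885% lower beside 1.79%. At an unadjusted p under 0.05 there were 14 and 13 members (12.4% and 11.5%) beside 13.4% and 17.5% of all hosts. DESeq2 called more, 6 members at day 3 (5.31%) and 9 at day 6 (7.96%), beside 6.92% and 11.1% of all hosts. Its additional calls included Fbxo42 and Rnf4 on both days and Trim37, Usp6nl and Fbxo38 at day 6, lower than day 0, and Ubr3 at day 3, higher than day 0. With edgeR, the count at day 3 was 4 without day 0 replicate 3, and the count at day 6 was 5 without day 0 replicate 1, day 6 replicate 2 or day 6 replicate 3. Scaling by library size alone gave 2 higher and 3 lower at day 6, where TMM scaling gave 2 and 1.

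From day 3 to day 6 no member host passed with edgeR, where 0.0726% of all hosts were called. At an unadjusted p under 0.05 there were 3 members (2.65% beside 5.95% of all hosts). DESeq2 called 1, Rnf150 (0.885% of members), beside 0.459% of all hosts. Libraries of the 2 groups did not overlap in 24 member hosts at day 3 against day 0 (21.2% beside 20.9% of all hosts), in 22 at day 6 against day 0 (19.5% beside 23.7%) and in 12 at day 6 against day 3 (10.6% beside 11.2%). The median log2 fold change of the 113 members was 0.01 at day 3 and 0.06 at day 6 against day 0, with -0.02 and -0.13 over all hosts. With library totals as the only scaling, the medians over all hosts were -0.15 and -0.24 and those of the members -0.13 and -0.07. Both comparisons with day 0 use the same day 0 libraries.

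**Figure D2:**
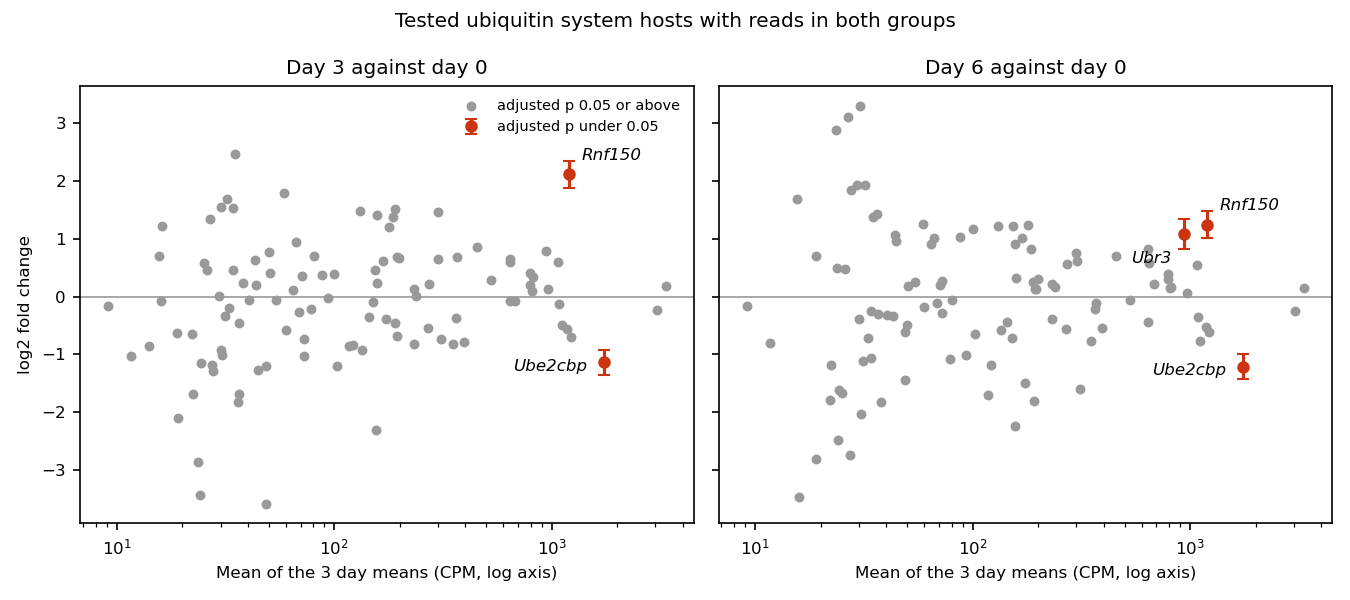
Log2 fold change against the mean level (CPM, log axis) for tested member hosts with reads in both groups, 107 at day 3 and 105 at day 6 against day 0. Filled red points with bars of 1 standard error are hosts with an adjusted p under 0.05, which are Rnf150 and Ube2cbp on both days and Ubr3 at day 6, the called hosts all among the more abundant members.

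Rnf150 (ENSMUSG00000047747), a transmembrane RING finger protein, showed the largest change among the members called. Its circles summed to 534, 426 and 437 CPM in the day 0 libraries, 2213, 1900 and 1967 CPM at day 3 and 1067, 1177 and 1075 CPM at day 6. All libraries of day 3 lay above all of day 6, and those above all of day 0. The log2 fold change was 2.12 ± 0.24 (SE) at day 3 (edgeR adjusted p = 5.5e-08) and 1.25 ± 0.23 at day 6 (adjusted p = 2.8e-04), and both calls held in 16 of 16 alternatives. Day 6 against day 3 gave -0.87 ± 0.23, with an edgeR adjusted p of 0.405. In the same libraries the summed CPM of the markers of differentiated muscle was higher at day 6 than at day 3. Single markers went in both directions, and edgeR called 0 of the 8 tested between these days. The part of these markers in the Rnf150 values was not tested.

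Rnf150 reads came from 11 circRNAs, 4 of them with 381 reads or more. The circle of exons 2 to 4 at chr8:82990347-83006412 (GRCm38, + strand) had 58, 64 and 62 reads at day 0, 263, 275 and 231 at day 3 and 83, 129 and 217 at day 6, and rose by 1.88 ± 0.39 on the log2 scale at day 3 (edgeR adjusted p = 0.00149). Exons 2 to 6 (chr8:82990347-83042782) gave 56, 21 and 25 reads, then 174, 159 and 171, then 71, 56 and 85, and rose by 2.18 ± 0.53 at day 3 (edgeR adjusted p = 0.0119). That second call was lost without day 0 replicate 2 (adjusted p = 0.0812) or 3 (0.0583), without day 3 replicate 1 (0.122), 2 (0.0950) or 3 (0.0725), with no filter on low counts (0.117) and with only the 2 groups compared in the fit (0.0581). Exons 3 to 6 (470 reads) and exons 5 to 6 (381 reads) had log2 fold changes of 1.82 ± 0.82 and 3.07 ± 1.04 at day 3, with edgeR adjusted p-values of 0.422 and 0.194. All 4 of these circles thus had positive fold changes at day 3, and exons 2 to 4 made up 48.5% ± 14.2, 41.4% ± 8.43 and 44.2% ± 5.63 of the host's reads (SD, n = 3) at days 0, 3 and 6.

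The intron before exon 2 of Rnf150 is 125856 bases long, against a median upstream intron of 7093 bases for member circles. Exon 2, the first exon of both called circles, is shown whole because its start is their common acceptor, with the first 20 bases, which lie at the junction, in capitals. It spans chr8:82990347-82990597 (GRCm38, + strand), 251 bases, all coding.
Rnf150 exon 2: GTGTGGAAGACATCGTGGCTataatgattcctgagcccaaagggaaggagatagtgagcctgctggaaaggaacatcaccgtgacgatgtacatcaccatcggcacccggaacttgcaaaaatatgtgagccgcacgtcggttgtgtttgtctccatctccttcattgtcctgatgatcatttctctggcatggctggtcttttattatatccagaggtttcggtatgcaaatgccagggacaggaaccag

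**Figure D3:**
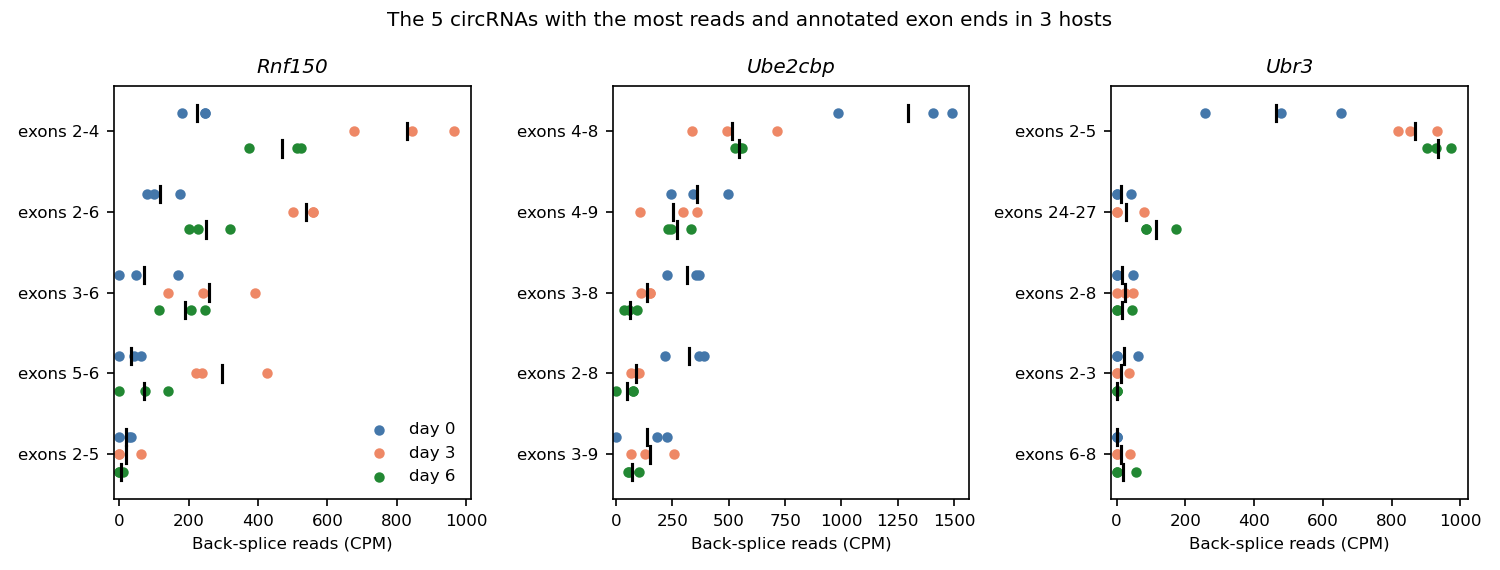
Levels (CPM) of the 5 circRNAs with the most reads and annotated exon ends in Rnf150, Ube2cbp and Ubr3, with 1 point per library, colours for the days and a black line at each day's mean. The 4 larger Rnf150 circles have their highest mean at day 3, the Ube2cbp circle of exons 4 to 8 lies at 984 CPM or more in the day 0 libraries and at 712 CPM or less in all others, and 1 circle carries most of the Ubr3 reads.

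Ube2cbp (ENSMUSG00000032415) fell on both days. The E3-type ligase it encodes binds the E2 enzyme Ube2c, which serves the anaphase promoting complex in mitosis. Its circles summed to 2515, 2971 and 2829 CPM at day 0, 1057, 1054 and 1666 CPM at day 3 and 1314, 1125 and 1151 CPM at day 6. Every later library was below every day 0 library, while days 3 and 6 overlapped. The log2 fold changes were -1.14 ± 0.21 at day 3 (edgeR adjusted p = 4.3e-04) and -1.21 ± 0.21 at day 6 (adjusted p = 1.2e-04), and both calls held in 16 of 16 alternatives. Proliferating-cell markers were lower on the same days (summed CPM above), and their part in the change of Ube2cbp was not tested.

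Of the 13 circRNAs of Ube2cbp, 8 appeared in at least 2 libraries, and 5 of those ended at the same donor, at position 86422841 of chromosome 9, with 71.4% of the host's reads. The largest, exons 4 to 8 at chr9:86422841-86440754 (GRCm38, - strand), had 315, 365 and 375 reads at day 0, 105, 141 and 243 at day 3 and 124, 130 and 232 at day 6. It fell by 1.33 on the log2 scale at day 3 (SE 0.32, edgeR adjusted p = 0.0102) and by 1.25 at day 6 (SE 0.32, adjusted p = 0.0157). The day 3 call was lost without day 0 replicate 3 (adjusted p = 0.0689), without day 3 replicate 1 (0.187) and with only the 2 groups in the fit (0.124). At day 6 it was lost without day 0 replicate 2 (adjusted p = 0.0509) or 3 (0.117) or day 6 replicate 2 (0.0530). Exons 4 to 9, the second by reads (785), had -0.51 ± 0.53 and -0.42 ± 0.53, and exons 3 to 8 (459 reads) -1.20 ± 0.71 and -2.32 ± 0.74, with edgeR adjusted p-values of 0.102 or more. Exon 8 is shown because its end is the donor of these 5 circles, with the last 20 bases, which lie at the junction, in capitals. It spans chr9:86422841-86423004 (GRCm38, - strand), 164 bases.
Ube2cbp exon 8: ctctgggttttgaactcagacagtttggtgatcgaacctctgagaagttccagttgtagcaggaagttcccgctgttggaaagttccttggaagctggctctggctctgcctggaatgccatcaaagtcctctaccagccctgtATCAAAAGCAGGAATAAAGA

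Among the other E2 hosts, Ube2w, which modifies N-terminal residues, had 307 ± 135, 558 ± 289 and 497 ± 15.2 CPM (SD, n = 3) at days 0, 3 and 6, and Ube2e3 had 522 ± 181, 301 ± 117 and 360 ± 71.2 CPM. Without Ube2cbp the E2 class took 0.160%, 0.130% and 0.121% of the reads on the 3 days.

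Among the 6 tested Ubr hosts, Ubr3 rose at day 6. Ubr3 (ENSMUSG00000044308), a RING-type ligase of the UBR box family, had 528, 465 and 744 CPM at day 0, 918, 1096 and 991 CPM at day 3 and 1183, 1254 and 1250 CPM at day 6, without overlap between any of the days. The log2 fold change was 1.09 ± 0.26 at day 6 (edgeR adjusted p = 0.00578; passed in 16 of 16 alternatives) and 0.79 ± 0.26 at day 3 (adjusted p = 0.0869; passed in 3 of 16). The circle of exons 2 to 5 at chr2:69914414-69922933 (+ strand) held 81.6% of its reads, with 153, 67 and 164 at day 0, 266, 266 and 279 at day 3 and 201, 240 and 393 at day 6, and 1.01 ± 0.32 at day 6 (edgeR adjusted p = 0.1). Ubr4, with 26 circRNAs, ranged from 172 to 680 CPM with overlap between all days.

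**Figure D4:**
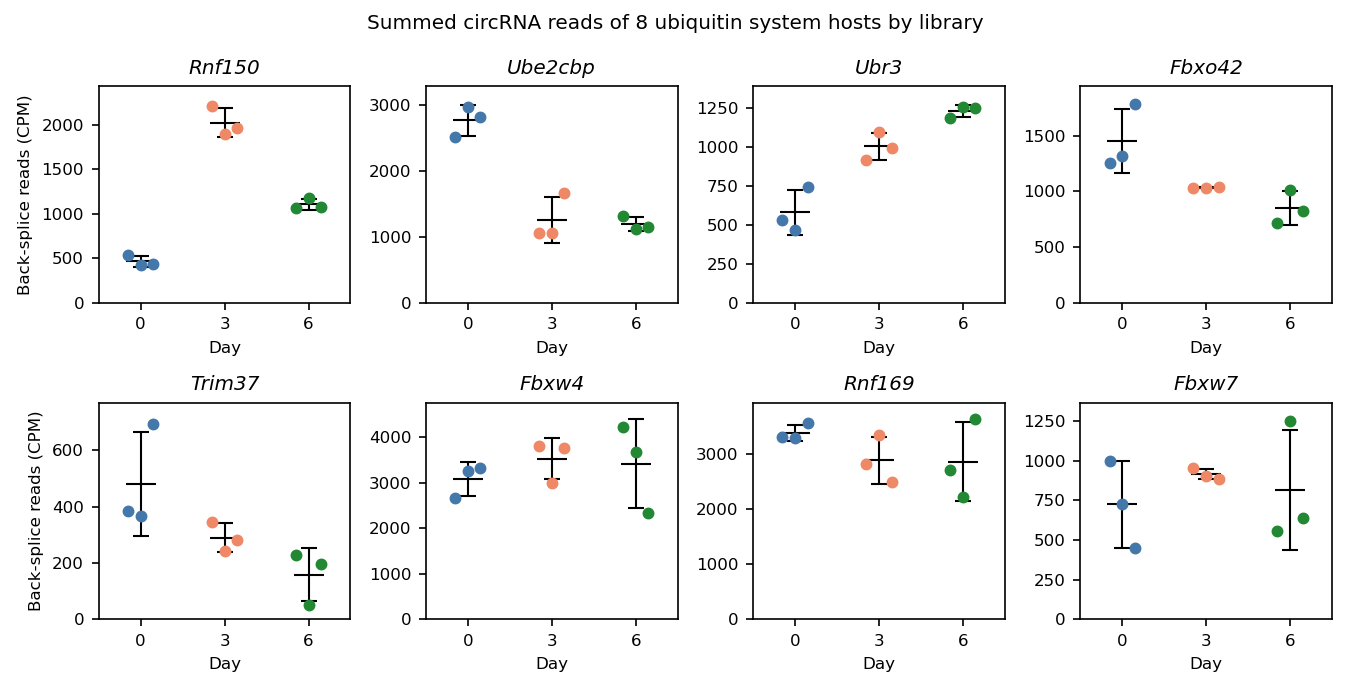
Summed back-splice reads (CPM) of 8 member hosts, with 1 point per library and bars for the mean and SD of 3 libraries at days 0, 3 and 6. Rnf150, Ube2cbp and Ubr3 passed the edgeR test, Fbxo42 and Trim37 lie below day 0 in all later libraries without passing it, and the days overlap in Fbxw4, Rnf169 and Fbxw7.

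Of the 26 tested RNF hosts, Rnf150 was the only call by edgeR, and DESeq2 added Rnf4. Rnf169, which binds ubiquitylated histones at DNA breaks, had 3296, 3282 and 3554 CPM at day 0, 2814, 3336 and 2489 CPM at day 3 and 2715, 2215 and 3634 CPM at day 6 (log2 fold changes -0.23 ± 0.18 and -0.24 ± 0.19, edgeR adjusted p = 0.738 and 0.579). Nearly all of its reads, 97.0%, came from exons 2 to 4 at chr7:99935162-99955540 (- strand). Rnf4, the SUMO-targeted ligase, had 1746, 1994 and 1124 CPM at day 0, 1012, 903 and 1070 CPM at day 3 and 955, 1323 and 910 CPM at day 6. Its day 3 libraries lay below day 0 and its day 6 libraries overlapped with it, with edgeR adjusted p of 0.124 and 0.169 and DESeq2 adjusted p of 0.0104 and 0.0312.

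Rnf114, a zinc-finger ligase, lay at 674 to 995 CPM at day 0, 1044 to 1419 at day 3 and 1047 to 1353 at day 6, so that both later days were above day 0 in all libraries, with log2 fold changes of 0.60 ± 0.25 and 0.55 ± 0.25 (edgeR adjusted p = 0.243 and 0.241). Rnf217, a ligase of the RING-between-RING type, had 1206 ± 37.2, 1100 ± 135 and 945 ± 54.6 CPM (SD, n = 3), and only day 6 lay below day 0 without overlap.

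Among the 19 tested F-box hosts edgeR called none against day 0, where 1 at day 3 and 2 at day 6 had an unadjusted p under 0.05 and DESeq2 called as many. Fbxw4 had the most reads of all members (8619), with 2656, 3266 and 3333 CPM at day 0, 3810, 3006 and 3763 CPM at day 3 and 4237, 3681 and 2339 CPM at day 6. Its days overlapped, and its log2 fold changes were 0.19 ± 0.19 and 0.15 ± 0.19 (edgeR adjusted p = 0.861 and 0.859). Of its 8 circRNAs in at least 2 libraries, 7 began at the same acceptor at position 45640521 of chromosome 19 and held 99.8% of its reads, led by exons 2 to 5 at chr19:45630865-45640521 (- strand) with 74.8%. In 4 of these the other end lay off the annotated exon ends, with 126, 101, 79 and 77 reads.

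Fbxo42, an F-box protein with Kelch repeats, had 1255, 1320 and 1781 CPM at day 0, 1028, 1029 and 1035 CPM at day 3 and 713, 1013 and 825 CPM at day 6. Both later days lay below day 0 in every library. The day 6 log2 fold change was -0.77 ± 0.24 with an edgeR adjusted p of 0.0518, which was under 0.05 in 5 of 16 alternatives. Its circle of exons 2 to 4 at chr4:141167713-141180532 (+ strand) gave -0.93 ± 0.27 (edgeR adjusted p = 0.0545, also 5 of 16). A locus shifted by 5 bases at both ends was listed beside it with 40 reads against 2665.

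Fbxw7, the substrate receptor for cyclin E, Notch and Myc, spread widely within days: 995, 729 and 448 CPM at day 0, 953, 906 and 888 CPM at day 3 and 557, 1250 and 640 CPM at day 6. Its exon 4 circle held 97.3% of the reads. Fbxw8, the partner of Cul7, had 922 ± 54.4, 1006 ± 227 and 960 ± 153 CPM, and the Fbxl17 circle of exons 2 to 4 ranged from 473 to 1099 CPM with overlap of all days. Fbxo32 (atrogin-1) had 86 reads in all, from 2 circRNAs that start at exon 2, with 0, 9 and 0 reads at day 0, 0, 17 and 19 at day 3 and 11, 7 and 23 at day 6. At this depth a difference was not detectable with edgeR. Fbxo21 and Fbxo30, also known from muscle, had 35 and 3 reads in all.

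Of 9 tested TRIM hosts edgeR called none against day 0, with 1 at day 3 and 2 at day 6 at an unadjusted p under 0.05, and DESeq2 called Trim37 at day 6. Trim37, a RING ligase with a TRAF domain, had 384, 366 and 695 CPM at day 0, 345, 242 and 283 CPM at day 3 and 228, 51.7 and 196 CPM at day 6. All later libraries lay below day 0, with a day 6 log2 fold change of -1.60 ± 0.50 (edgeR adjusted p = 0.0518, under 0.05 in 8 of 16 alternatives). Its reads were spread over 28 circRNAs, of which the largest, exons 15 to 16, had 242 reads. Its circle of exons 6 to 10 had 14, 14 and 28 reads at day 0, 39, 16 and 22 at day 3 and none listed at day 6.

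Trim33, which acts on Smad4, had 665 ± 48.1, 885 ± 127 and 825 ± 117 CPM at the 3 days (SD, n = 3), with both later days above day 0 in all libraries and edgeR adjusted p of 0.548 and 0.668. Trim55 (MuRF2, a sarcomere-associated ligase) had no reads listed at day 0, 11, 0 and 22 at day 3 and 11, 8 and 16 at day 6. Against a floor of 3 reads per library at day 0 its mean was at least 3.13-fold higher at day 3 and at least 3.91-fold higher at day 6, with edgeR adjusted p of 0.345 and 0.249. Trim63, Trim54, Trim32, Fbxo40, Cul7 and Fbxl21 were looked for because of their known place in muscle. They were not found among the hosts in the table used here, so no level is given for them.

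Usp enzymes had the most hosts, and of the 30 tested edgeR called none against day 0, with 4 at day 3 and 2 at day 6 at an unadjusted p under 0.05, while DESeq2 called Usp6nl at day 6. Usp3, which acts on histone H2A, had 476 ± 137, 746 ± 140 and 713 ± 96.9 CPM at the 3 days (SD, n = 3), and Usp48, with 29 circRNAs, had 718 ± 61.5, 680 ± 53.6 and 529 ± 189 CPM. Day 0 overlapped with both later days in each of them. Usp25, known for a muscle isoform, had 80 reads and Usp19 had 4. Usp6nl, a member by name only, had 411, 303 and 285 CPM at day 0, 84.6, 77.3 and 38.3 CPM at day 3 and 0, 17.2 and 187 CPM at day 6, with edgeR adjusted p of 0.211 and 0.177.

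HECT, U-box and cullin hosts (7, 2 and 5 tested) had no call against day 0 by edgeR or DESeq2, and 1 HECT host, Herc2, had an unadjusted p under 0.05 at day 3. Ube3c, a proteasome-associated HECT ligase with 26 circRNAs, had 161, 445 and 334 CPM at day 0, 449, 488 and 575 CPM at day 3 and 174, 190 and 501 CPM at day 6, and day 3 lay just above day 0. Ube3a, the ligase lost in Angelman syndrome, had 138 ± 19.2, 163 ± 33.3 and 173 ± 120 CPM. Ube4b, which extends ubiquitin chains, had 765 ± 116, 817 ± 128 and 849 ± 52.4 CPM (SD, n = 3), with overlap of the days. Cul3, the scaffold of BTB-protein ligases, had 445 reads, 399 of them from a single circle, and levels from 0 to 445 CPM with overlap of all days.

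Single circRNAs gave few calls as well. Of 244 tested member circRNAs, 3 passed at day 3 against day 0 (1.23% beside 1.58% of all 8153 tested), the 2 Rnf150 circles and the Ube2cbp circle described above, and 1 at day 6 (0.41% beside 1.99%), the same Ube2cbp circle. No member circRNA passed at day 6 against day 3 with edgeR, where 0.0613% of all were called. At an unadjusted p under 0.05 there were 9 (3.69% beside 4.34%), and DESeq2 called 1, of Trim37 (0.41% of members), beside 0.245% of all. DESeq2 called 6 members at day 3 (2.46%) and 11 at day 6 (4.51%), beside 3.34% and 5.72% of all. The day 3 count was 1 without day 3 replicate 1. At day 6 the count was 0 without day 6 replicate 2 and 2, with Rnf169, without day 6 replicate 3, and the single call was of Fbxo42 without day 0 replicate 2 and of Ubr3 without day 0 replicate 3. Libraries did not overlap in 26 (10.7% beside 16.1%), 35 (14.3% beside 16.4%) and 21 (8.61% beside 9.13%) members in the 3 comparisons.

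Whether the circles of a host changed in proportion was tested in the 55 member hosts with at least 2 tested circles. None passed in any of the 3 comparisons (edgeR diffSpliceDGE), where 0.364%, 0.606% and 0.0606% of 1649 hosts were called, and 4, 5 and 1 members (7.27%, 9.09% and 1.82%) had an unadjusted p under 0.05 beside 10.1%, 11.1% and 6.43% of all. DESeq2 has no such test and was not run. For Ube2cbp the circle of exons 4 to 8 held 45.4% ± 7.02, 40.8% ± 7.60 and 47.7% ± 2.03 of the reads at days 0, 3 and 6, and exons 2 to 8 held 11.4% ± 2.79, 7.22% ± 1.55 and 4.42% ± 3.84 (SD, n = 3).

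The other genes of the ubiquitin system were given as a list of 161 that are not members by name, of which 122 were found as hosts and 88 were tested. At day 3, 5 rose and 2 fell (edgeR adjusted p under 0.05), which are 5.68% and 2.27% of the list beside 3.05% and 0.895% of all tested hosts. At day 6, 6 rose and 3 fell, 6.82% and 3.41% beside 3.85% and 1.79%. The median log2 fold changes of the list were -0.14 and -0.20 against day 0, with -0.02 and -0.13 over all hosts. Among HECT and related ligases at day 6, Nedd4, a ligase of membrane proteins, fell from 2158 ± 369 CPM at day 0 to 894 ± 78.7 (log2 fold change -1.27 ± 0.23), while Hecw2 rose from 375 ± 143 to 1290 ± 353 CPM (1.78 ± 0.29), and Arih1 rose as well. Dcun1d4, which helps attach Nedd8 to cullins, rose from 655 ± 88.8 to 1498 ± 98.5 CPM at day 3 and 1894 ± 138 at day 6 (1.53 ± 0.22). Pja2, a RING ligase, rose from 253 ± 104 to 916 ± 144 CPM at day 6, and Rad23b, a shuttle to the proteasome, from 1806 ± 168 to 2883 ± 478 CPM. Bard1, the partner of Brca1, fell from 370 ± 45.0 to 25.9 ± 44.8 CPM at day 6, and Uhrf1, a reader of hemimethylated DNA, from 144 ± 166 CPM to none listed.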

How the data were processed

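The authors deposited 1 table of raw back-splice read counts per circRNA and library, with locus, type and host gene. BWA and the build GRCm38.p4 (mm10) are named per the submitters' processing notes. The circRNA caller is not given in the sources used here, nor are its filters. Symbols came from GENCODE M21 (6861 of 6943 host identifiers). Counts were tested as deposited, and summed per host, with the quasi-likelihood F-test of edgeR 4.0.16 (R 4.3.3, limma 3.58.1): TMM factors, a minimum count of 5 and total of 15, all 9 libraries, 6 residual degrees of freedom, no block, prior count 0.125, and Benjamini-Hochberg adjustment over all 4135 hosts or 8153 circRNAs. The SE is the absolute log2 fold change over the square root of F, since edgeR reports none. Shares of circles within hosts were tested with diffSpliceDGE. DESeq2 1.42.0, other scalings and filters, the replicate block and each library left out were alternatives. The scripts were tested on simulated data. Named members are all that passed, the 10 hosts and 10 circRNAs with the most reads, the 5 hosts with the most circRNAs, the leading host of each class and a fixed set known in muscle. Others named, such as Ube2w, Ube2e3, Usp6nl, Fbxo38 and the genes outside the members, were chosen after their values were seen. Members and lists were chosen with earlier results of these data known. Some genes are not reported here.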

Additional observations from a re-analysis of the deposited data

How the results depend on the processing

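Of 738 values of named hosts and circRNAs under an alternative, 678 stayed the same, 37 passed in addition and 13 no longer passed. The 10 others moved by more than the SE of the main fit or passed with the opposite sign. For values that passed in the main fit, the same meant passing with the same sign, and 0 of them reversed. For all other values it meant not passing and lying within the SE of the main fit, and their sign was not checked. DESeq2 in place of edgeR called 6, 9 and 1 member hosts and 6, 11 and 1 member circRNAs (day 3 against day 0, day 6 against day 0, day 6 against day 3), where edgeR called 2, 3 and 0 hosts and 3, 1 and 0 circRNAs. Library totals as the only scaling gave 5 hosts and 2 circRNAs at day 6 against day 0. Upper-quartile factors and a minimum count of 10 gave 2 circRNAs each there. With only the 2 groups in the fit, 1 circRNA was called at day 3 against day 0. With no filter, 1 host (Rnf13) changed in circle usage at day 6 against day 0. Leaving out 1 library at a time gave 2 to 4, 3 to 5 and 0 to 0 hosts, 1 to 3, 0 to 2 and 0 to 0 circRNAs, and 0 hosts with changed usage in each comparison. The members' share of reads lay between 3.47% and 3.61% at day 0, 3.25% and 3.27% at day 3 and 3.06% and 3.12% at day 6 with 1 library left out. Without Fbxw4, the host with the most reads, it was 3.21%, 2.92% and 2.76%, without Ube2cbp 3.24%, 3.14% and 2.98%, and with exonic circRNAs only 3.20% at day 3. The cause of these differences was not tested.

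The labels number the libraries 1 to 3 at each time point. Deviations of same-numbered libraries correlated between -0.0333 and 0.00968 (27 pairs per level, hosts or circRNAs, of which 9 share a number), so the numbers were not taken to pair the libraries. With the replicate block 3, 4 and 0 hosts, 4, 1 and 0 circRNAs and 0, 0 and 0 hosts with changed usage were called, in the same order of comparisons. With 3 libraries a group and 57 of 170 member hosts under the filter, counts set what can be seen: hosts near the floor of 3 reads cannot show a difference at this depth.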

Other observations

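Some members were listed on 1 day only: 13 hosts at day 0, 12 at day 3 and 10 at day 6. None of them appeared in all 3 libraries of its day, and the largest had 48 reads in all. Usp8, an endosomal deubiquitinase, had no reads at day 0, 6, 24 and 6 at day 3 and 5, 0 and 14 at day 6. Fbxo38 had 14, 21 and 34 reads at day 0, 0, 11 and 11 at day 3 and none listed at day 6. These hosts were chosen after their values were seen.

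Junction sites were reused within hosts. Of 383 member circRNAs in at least 2 libraries, 51.7% shared their acceptor with another circRNA of the host and 35.5% their donor, against 49.97% and 41.7% for 13125 circRNAs of other hosts. Pairs of loci whose both ends were shifted by the same 1 to 10 bases were found in Fbxo42 (5 bases) and Rnf150 (7 bases, 4 reads beside 470), 0.408% of member loci against 0.190% of others. Of member circRNAs, 32 (3.26%) carried a circBase identifier and held 41.5% of member reads, against 2.72% and 31.2% elsewhere.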
